A study of Homo sapiens with 12 samples.

Results

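The loss of mRNA after transcription was blocked was measured in U2OS cells, a human osteosarcoma line, whose EXOSC5 gene had been targeted with Cas9 (EXOSC5-KO). The comparison set 2 libraries of EXOSC5-KO cells exposed to 1 μM triptolide for 8 h against 2 libraries of untreated EXOSC5-KO cells, whose treatment label reads DMSO, 4 of the 12 libraries of the series. The other libraries were 4 of cells with a nontargeting guide (NONT) and 4 of cells with a NUP93 guide (NUP93-KO), each with the same pair of treatments, and they entered the model and the comparisons between genotypes. All cells had been transiently transfected with the Cas9 plasmid, selected with puromycin and re-plated, so each knockout was a pool of edited cells and not 1 clone. Nothing says that the replicates came from separate cultures, so the p-values measure the spread between these libraries, which may be technical. Of 22379 genes in the table, 13811 averaged at least 10 across all 6 untreated libraries and entered the test. HSFX1 was just inside this limit, with an average of 10.01, and LRRIQ1 was just outside it, with 9.97.

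Triptolide binds the TFIIH helicase XPB, stops initiation by RNA polymerase II and leads to degradation of its largest subunit. With no new transcripts, the level of an mRNA in the hours that follow depends on how quickly the existing copies decay, so short-lived mRNAs empty first and long-lived mRNAs fill what is left of the pool. EXOSC5 is a ring subunit of the RNA exosome, the complex that degrades RNA from its 3′ end in the nucleus and, with the SKI complex, in the cytoplasm. Most cytoplasmic mRNA decay begins with removal of the poly(A) tail and then runs through decapping from the 5′ end or through the exosome from the 3′ end.

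The EXOSC5 guide is shown because it defines the cells. It matched the plus strand of the GRCh38 assembly at chr19:41397170-41397189, opposite to the strand of EXOSC5, with 9 bases in exon 1 of the 6 exons of the canonical transcript and 11 in the intron that follows, and with the Cas9 cut in the exon. The capitals mark the PAM that follows the guide in the genome.
EXOSC5 guide: gaagttcttaccttgcaggaAGG
EXOSC5 itself was measured at 216 and 148 in untreated EXOSC5-KO and at 75.2 and 102 after triptolide. It stood at 299 and 481 and at 266 and 208 in the same treatments of NONT, and at 376 and 376 and at 289 and 323 in NUP93-KO. Each EXOSC5-KO library lay below every library of the other genotypes with the same treatment, and the transcript was still present, as an edit need not remove the mRNA. Under triptolide EXOSC5 moved like the median gene in EXOSC5-KO, with 48.6% of its untreated value kept and a relative response of 0.044 ± 0.19 (SE, limma adjusted p = 0.859).

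Values were signals normalized to added spike-in RNA, so that a library with less mRNA per cell has lower values. Models used log2(value + 1), which understates the change of genes with low values, and a kept share is the mean of the treated libraries as a percentage of the mean of the untreated ones. Less mRNA per cell, a miscounted number of cells and a wrong spike-in volume cannot be told apart on this scale. Approximate depth was 8.60 to 11.96 M reads over the 12 libraries. Between replicates, log2 values had a Pearson r of 0.964 without drug and 0.966 with triptolide across genes, which do not count as independent samples. The mesenchymal markers VIM, SPARC, CD44 and COL1A1 were abundant in all 4 EXOSC5-KO libraries, and 8 of 10 osteoblast and mesenchymal markers had an untreated mean of at least 10, while SP7 and TWIST1 were listed at 0 in all 12 libraries. Of the 6 hematopoietic markers, CD68 was the one with such a mean, and CD3E was listed at 0 throughout. The 6 epithelial markers summed to 158 and 135 without drug and to 98.6 and 89.5 with triptolide, against 114456 and 100190 and then 68333 and 68769 for the mesenchymal list. The 4 neuronal markers, mostly NEFL, summed to 1601 and 1385 and then 1064 and 873, and the 3 endothelial markers to 23.0 and 17.3 and then 5.05 and 8.16. The part of the cell count and of the cell mixture in the results was not tested.

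The median gene kept 47.2% of its untreated value after 8 h of triptolide in EXOSC5-KO. Its response was −1.08 on the log2 scale, and the 4 possible pairs of 1 treated and 1 untreated library gave −1.13 to −1.02. Around that center the spread was wide. A gene at the 5th percentile kept 5.18%, one at the 25th percentile 24.1%, one at the 75th percentile 68.6% and one at the 95th percentile 92.4%. Under 10% was kept by 1404 genes and under 5% by 657, while 423 genes, 3.06% of those tested, had a treated mean at or above the untreated mean. In limma, 8884 genes (64.3% of those tested) were lower after triptolide on the spike-in scale and 11 (0.0796%) were higher, at an adjusted p under 0.05.

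To describe genes relative to the bulk of transcripts, each library was shifted so that the median gene had a response of 0, and the same model was fitted again. A gene was called lost when it lay at least 1 log2 unit below the median gene with an adjusted p under 0.05, and retained when it lay at least 1 unit above it. The lost class held 2942 genes (21.3% of those tested), the retained class 356 (2.58%), and 10513 genes were in neither. The lost genes kept a median of 11.1% of their untreated value, with an interquartile range of 5.68% to 17.0%, and the retained genes kept a median of 107%, with a range of 100.0% to 125%. On the histogram of responses the lost side forms a long tail that reaches −7.81, and the highest gene lies at 4.43. The interquartile range was −2.92 to −1.48 in the lost class and 1.07 to 1.44 in the retained class. A gene that kept its whole untreated value lies just above the retained limit on this scale. At the limits, JOSD1 was just inside the lost class at −1.0004 and TEX30 just outside at −0.9991, and MMD and NBEAL2 lay on either side of the retained limit at 1.00001 and 0.99998. The choice of center decides how many genes count as retained: centered on its own median, which moved the median gene by 0.47, each library gave 3151 retained and 2040 lost genes, and relative to the total of each library, which moved it by −0.29, there were 85 retained and 3608 lost. All 85 of those retained genes and all 2040 of those lost genes were among the 356 and the 2942.

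**Figure D1:**
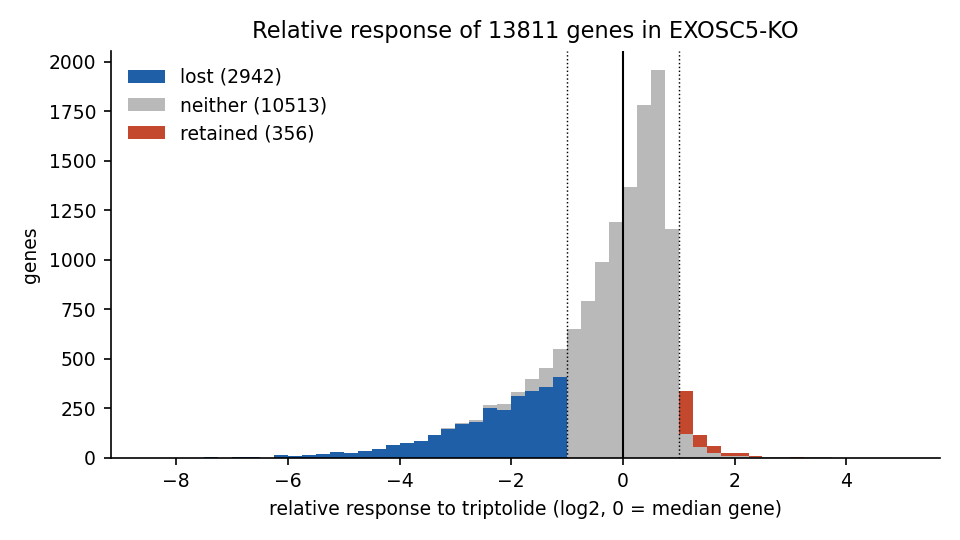
Number of genes by relative response to triptolide in EXOSC5-KO, in log2 units with the median gene at 0 (solid line) and the limits of the classes at −1 and 1 (dotted lines). Blue marks the 2942 lost genes, red the 356 retained genes and gray the 10513 others; the lost side has a long tail, and few genes lie beyond 1 on the retained side.

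The untreated level of the classes was unlike. Lost genes had a median untreated value of 337 and retained genes of 115. Among the 3325 genes with an untreated value under 100 in EXOSC5-KO, 15.7% were lost and 5.08% retained. Among the 7213 genes from 100 to 1000 these shares were 27.3% and 2.15%, and among the 3273 genes at 1000 and over they were 13.7% and 0.978%. Thus 169 of the 356 retained genes were low in untreated cells, where replicates spread most. The lost class reached far into abundant mRNAs, with 449 members at an untreated value of at least 1000, and 627 lost genes still had a value of at least 100 after triptolide.

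**Figure D2:**
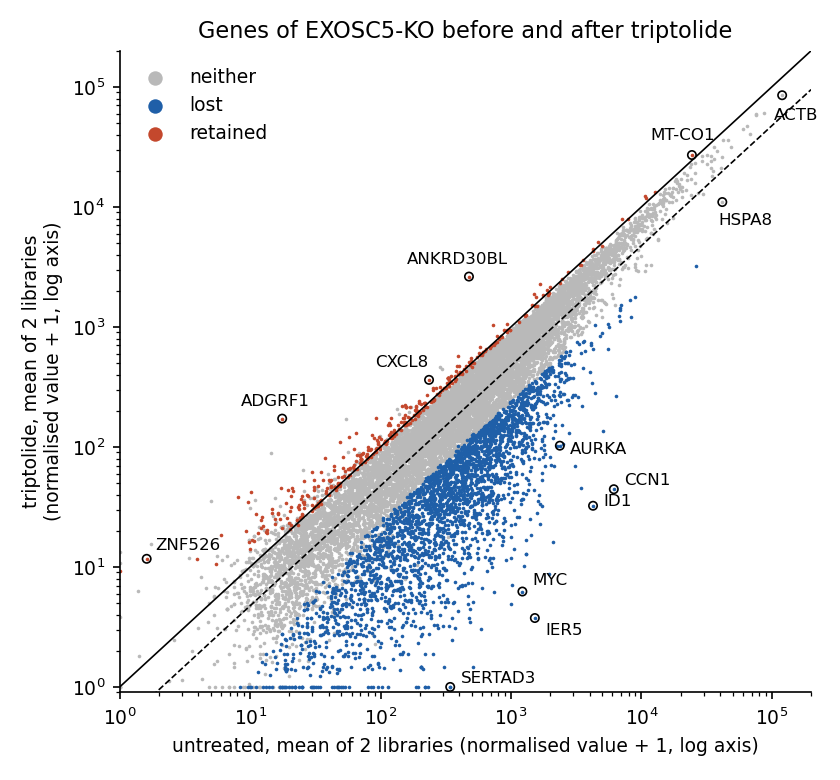
Mean normalized value of each tested gene in the 2 triptolide libraries of EXOSC5-KO (vertical, value + 1, log axis) against the mean in the 2 untreated libraries (horizontal, value + 1, log axis). The solid line marks equal values and the dashed line the median response of −1.08; lost genes (blue) lie below the dashed line at all levels, retained genes (red) lie near or above the solid line, and named genes are circled.

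Among lost genes with an untreated mean of at least 100, the 8 lowest relative responses were those of IER5, SERTAD3, DDIT4, SNAI2, DUSP1, C6orf47, EGR1 and MYC. IER5, an immediate early gene, was at 1659 and 1386 in the untreated libraries and at 4.68 and 0.823 after triptolide, a relative response of −7.81 ± 0.41 (SE, limma adjusted p = 3.11e-07). DUSP1, a phosphatase that inactivates MAP kinases, fell from 2022 and 1906 to 5.62 and 9.88 (−6.79 ± 0.39, adjusted p = 4.96e-07). EGR1, a growth factor-induced zinc finger factor, fell from 981 and 1027 to 2.81 and 4.94 (−6.66 ± 0.33, adjusted p = 2.17e-07). For each of these genes the treated values were under 1% of the untreated ones in both libraries. MYC, the growth-promoting transcription factor, fell from 1236 and 1208 to 5.18 and 5.29 (−6.55 ± 0.19, adjusted p = 2.82e-08). DDIT4, a stress-induced inhibitor of mTORC1, was at 566 and 605 and then at 0 and 4.12 (−6.95 ± 0.90, adjusted p = 8.69e-05). C6orf47, a gene of 1 exon, was at 329.7 and 283 and then at 0.936 and 0 (adjusted p = 0.0106), too low for a fold to be given. SERTAD3, at 335 and 347 without drug, and SNAI2, a factor of epithelial-mesenchymal transition at 240.3 and 224, were listed at 0 in both treated libraries, so no fold is given. In all, 54 lost genes were listed at 0 in both treated libraries. In NONT the same 8 genes were also low after triptolide: DDIT4, SNAI2 and C6orf47 were listed at 0 in both treated libraries, and the other 5 had relative responses from −7.59 (DUSP1) to −5.55 (SERTAD3).

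AU-rich elements and Pumilio sites in a 3′ UTR are sequences that are known to recruit deadenylases. The first copy of the heptamer TATTTAT is shown for 4 named lost genes and the first TGTANATA, the core to which Pumilio proteins bind, for 4 others, with 10 bases on each side and the motif in capitals. Both were searched on the transcript strand of the GENCODE release 44 canonical 3′ UTR, and they lie on the plus or minus strand of GRCh38 as given. Of 12933 tested genes with such a 3′ UTR, 36.9% held TATTTAT and 30.6% held TGTANATA. A match is a description of the letters and not proof of a working site. The genes shown were picked from those that hold a motif, so they do not show how often lost genes carry one. Of the genes with the lowest responses named above, IER5 and DUSP1 held TATTTAT, and IER5, DUSP1 and EGR1 held TGTANATA. No copy of either was listed for SERTAD3, DDIT4, SNAI2, C6orf47 and MYC. In the order of the sequences, the windows are at chr1:181091981-181092007 (plus), chr5:172768644-172768670 (minus), chr1:58780820-58780846 (minus), chr1:150575808-150575834 (minus), chr5:138468722-138468749 (plus), chr9:91409113-91409140 (minus), chr11:114409043-114409070 (plus) and chr6:17615419-17615446 (minus).
IER5: cataataatgTATTTATagaattaaac
DUSP1: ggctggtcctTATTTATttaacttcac
JUN: tgcttatgaaTATTTATaacagcattc
MCL1: cctctacagaTATTTATatcaattcct
EGR1: ttaaccttttTGTAAATActgcttgacc
NFIL3: atgcgaaggcTGTATATAttgaacatta
RBM7: atacatctttTGTACATAtagagcatga
NUP153: atgaaacttgTGTAAATAcaattttgtt
IER5, DUSP1, JUN and MCL1 also held a TGTANATA elsewhere in the 3′ UTR, whereas EGR1 held no TATTTAT. The 3′ UTR of NFIL3 is 301 bases long and that of IER5 is 3014 bases long, so the letters were found in short and in long 3′ UTRs.

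Signaling-induced genes were lost as groups. Of 18 tested immediate early genes other than AP-1, 15 were lost and none was retained, against 21.3% and 2.58% of all tested genes, and their median relative response was −3.93. Among AP-1 and Maf factors 9 of 10 were lost (median −2.59). JUN fell from 388 and 401 to 0 and 6.58 and JUNB from 959 and 779.9 to 18.7 and 12.4, relative responses of −6.10 and −4.67. MAFG, a small Maf protein, kept 16.8% and was lost too, while MAFF, its relative, kept 33.1% (−0.53 ± 0.18, SE, limma adjusted p = 0.0274) and stayed outside the class. Among the immediate early genes the orphan receptor NR4A1 kept 34.3% (−0.47 ± 0.25, adjusted p = 0.137) and SRF, the factor that drives many of them, kept 48.8% (0.040 ± 0.10, adjusted p = 0.768), so neither differed detectably from the median gene. IER5 and EGR1 marked the other end of this list.

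Most feedback regulators of signaling were lost too, against 21.3% of all tested genes. Of the 8 dual-specificity MAP kinase phosphatases, 7 were lost, with relative responses from −6.79 (DUSP1) to −2.24 (DUSP8). DUSP10 was at 287 and 226 and then 2.19 and 2.43 (−5.20), and DUSP16 at 537 and 443 and then 24.0 and 53.2 (−2.66). The exception was DUSP9, at 76.1 and 61.5 and then 72.8 and 96.1, which was retained (1.35 ± 0.23, adjusted p = 0.00057) and is named here after its values were seen. Of 17 feedback genes of the NF-κB and TGF-β pathways, 14 were lost (median −3.63). ID1, an inhibitor of DNA binding and a TGF-β family target, was at 4499.7 and 4011 without drug and at 37.4 and 25.3 with it, a relative response of −5.997 ± 0.19 (SE, adjusted p = 5.16e-08). SKIL, a repressor of SMAD signaling, kept 30.4% (−0.65, adjusted p = 0.00253) and NFKBIB, an inhibitor of NF-κB, kept 51.4% (0.11, adjusted p = 0.523). Of 14 circadian clock genes, 10 were lost (median −1.95), led by the repressors NFIL3, at 346 and 317 and then 2.81 and 1.65 (−5.64), and BHLHE40, at 1912 and 1595 and then 67.4 and 95.4 (−3.36). The activator CLOCK kept 29.1% (−0.70, adjusted p = 0.0167) and PER3 kept 35.7% (−0.43, adjusted p = 0.118).

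Regulators of apoptosis were split. Their counts stand against 21.3% lost and 2.58% retained over all tested genes. Of the 5 anti-apoptotic BCL2 genes, 3 were lost. MCL1 was at 3471 and 3431 without drug and at 50.9 and 37.4 with it, a relative response of −5.21 ± 0.37 (SE, limma adjusted p = 1.63e-06). BCL2 fell from 201 and 203 to 21.3 and 23.0 (−2.07) and BCL2L1, which encodes BCL-XL, from 4329 and 3811 to 626 and 799 (−1.45). BCL2L2 kept 36.2% (−0.39, adjusted p = 0.25). BCL2L1 thus remained the most abundant of these by signal after triptolide, without correction for length. Of 13 pro-apoptotic BCL2 genes, 5 were lost and none was retained (median −0.58). BBC3, which encodes PUMA, fell from 356 and 392 to 7.09 and 5.74 (−4.60 ± 0.32, adjusted p = 1.43e-06) and BAK1, an effector of the mitochondrial pore, from 1234 and 1188 to 126 and 98.8 (−2.36). BID kept 90.7% (0.93 ± 0.12, adjusted p = 9.26e-05) and BCL2L12 kept 77.6% (0.70 ± 0.11, adjusted p = 0.000356), both above the median gene but short of the retained limit.

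Caspases and their regulators gave 7 lost genes of 18 (median −0.74), against 21.3% of all tested genes. FADD, the adaptor of death receptors, was at 893 and 825 and then at 16.9 and 11.5 (−4.78), and CASP2 at 408 and 476 and then at 36.4 and 30.6 (−2.61). CYCS, cytochrome c, kept 76.1% (0.67, limma adjusted p = 4.3e-05) and the mitochondrial protease HTRA2 kept 60.8% (0.35, adjusted p = 0.0661). Of 22 p53 targets, 9 were lost and none was retained (median −0.82), against 21.3% and 2.58% of all tested genes. The list held both PLK2, a kinase at 985 and 789 and then 22.6 and 16.2 (−4.39), and SESN2, a stress sensor at 827 and 705 and then 25.3 and 20.6 (−3.94), and at its other end FDXR, a mitochondrial reductase that kept 86.2% (0.86), and RRM2B, a ribonucleotide reductase subunit that kept 79.8% (0.74). The 4 transcripts that the study named as short-lived, MYC, JUN, MCL1 and WEE1, were all lost, and since the study itself singled them out, this is no independent evidence of their direction. WEE1, a kinase that restrains mitosis, fell from 449 and 278 to 10.5 and 10.2 (−3.90).

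Numbered zinc finger genes were the list with the most tested members of the 32, so its large number of lost genes partly reflects its size. Of 440 tested genes named ZNF with a number, 236 were lost, against 21.3% of all tested genes. The median member kept 16.1% (relative response −1.53). Several smaller lists had a higher share, such as AP-1 and Maf factors with 9 of 10 lost. The 1 called retained was ZNF526, which was nearly absent from untreated EXOSC5-KO libraries, so its call measures no retention. Most of these genes encode C2H2 zinc finger proteins, many of them KRAB repressors. ZNF503 fell from 411 and 326 to 0.936 and 3.29 (−5.93) and ZNF281 from 1323 and 1179 to 7.06 and 11.2 (−5.91). ZNF385A kept 80.6% (0.76, limma adjusted p = 0.00169) and ZNF480 78.4% (0.72, adjusted p = 0.0104).

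Of 32 mitotic and kinetochore genes, 11 were lost and none was retained (median −0.60). Of 39 DNA replication genes, 9 were lost (median 0.12), a share near the 21.3% of all tested genes. AURKA, the centrosomal kinase, fell from 2327 and 2409 to 92.3 and 110.5 (−3.47 ± 0.15, SE, limma adjusted p = 1.57e-07) and the checkpoint kinase TTK from 489 and 483 to 48.4 and 25.8 (−2.68). NUF2 and MAD2L1, proteins of the kinetochore and its checkpoint, each kept 69.5% (0.55 and 0.54), above the median gene. Among replication genes GINS1 was at 244 and 158 and then at 0 and 23.1 (−4.26 ± 1.05, adjusted p = 0.0056) and the licensing factor CDT1 at 849 and 768 and then at 67.0 and 110.0 (−2.15), while LIG1 and RPA3 kept 81.8% and 79.5% (0.77 and 0.74). Of 20 replication-dependent histone genes, whose mRNAs mostly lack a poly(A) tail and are poorly sampled here, 2 were lost (median 0.10). H4C15 kept 19.8% (−1.29, adjusted p = 0.00976) and H2BC11 35.2% (−0.43, adjusted p = 0.107), and H1-2 and H4C12 kept 69.1% and 77.2%. Histone genes are near-identical copies, and the share of each in their reads is uncertain. The medians of the replication and histone lists turned negative relative to the total, at −0.16 and −0.19.

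The RNA exosome and its cofactors were examined because EXOSC5 was the targeted gene. Of 12 exosome subunits, 2 were lost, a share not above the 21.3% of all tested genes, and none was retained. EXOSC3, a cap subunit, was at 687 and 642 and then at 79.2 and 100.7 (−1.81 ± 0.29, SE, limma adjusted p = 0.000386), and EXOSC6, a ring subunit encoded by a gene of 1 exon, at 688 and 592 and then at 142 and 133 (−1.14 ± 0.12, adjusted p = 2.28e-05). EXOSC1 and EXOSC7 kept 76.5% and 63.9% (0.68 and 0.43). The subunits thus kept unequal shares of their mRNAs after 8 h. Of 15 cofactors, 6 were lost, against 21.3% of all tested genes, namely RBM7, ZCCHC8, TENT4A, TENT4B, ZC3H18 and ZCCHC7. RBM7 and ZCCHC8, partners in the NEXT complex that targets unstable nuclear RNA, fell from 678 and 784 to 19.8 and 12.5 (−4.38 ± 0.43, adjusted p = 1.34e-05) and from 319 and 268 to 25.8 and 30.7 (−2.26). At the other end of the list were 2 genes of the cytoplasmic SKI complex, SKIC2, the helicase, at 256 and 309.8 and then 257 and 273 (0.98 ± 0.33, adjusted p = 0.0264) and SKIC3 at 1235 and 924 and then 871 and 903 (0.80 ± 0.11, adjusted p = 0.000174). Of 32 deadenylation, decapping and 5′ decay factors, 12 were lost, with TOB1, which recruits the CCR4-NOT deadenylase, falling from 414 and 427 to 5.69 and 6.57 (−4.82) and CNOT6L, a catalytic subunit of that complex, from 497 and 444 to 10.4 and 13.9 (−4.11). LSM4 and LSM5, of the ring that binds shortened tails, kept 89.9% and 89.7%. List medians were −0.46 for subunits, −0.22 for cofactors and −0.53 for the other factors, and the first and second became 0.014 and 0.26 with each library centered on its own median. No exosome, cofactor or decay gene on these lists differed in relative response from NONT or NUP93-KO at an adjusted p under 0.05. EXOSC4 came near this limit, at −0.59 in EXOSC5-KO and −1.72 in NONT, a difference of 1.13 (limma adjusted p = 0.0551). Its difference from NUP93-KO was 0.82 (adjusted p = 0.202). With 2 libraries a group, such differences can be missed.

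Transcription and nuclear pore machinery covered a similar range. Of 12 RNA polymerase II subunits, 1 was lost (POLR2D, at 1639 and 1558 and then 284 and 338, −1.29), and the small shared subunits POLR2F and POLR2L kept 86.0% and 85.9%. POLR2B, the second largest subunit, kept 43.2% (−0.14, limma adjusted p = 0.0748). POLR2A, the gene of the largest subunit, counts among the 12 but was too low to place. It was at 18.1 and 8.42 and then 14.9 and 0 (−0.68 ± 1.75, adjusted p = 0.765). Of 10 TFIIH subunits, the complex that holds the target of triptolide, CDK7 was lost, at 344 and 447 and then 15.0 and 30.9 (−3.06 ± 0.45, adjusted p = 0.000195), and GTF2H3 was retained, at 636 and 369 and then 507 and 492 (1.11 ± 0.20, adjusted p = 0.000842). GTF2H4 kept 28.6% and GTF2H5 69.6%. Of 31 nuclear pore genes, 6 were lost, a share near the 21.3% of all tested genes (median −0.34, but 0.14 centered on the median of each library). NUP153, of the nuclear basket, fell from 1369 and 1249.9 to 46.6 and 32.3 (−3.97), whereas NUP210 and AAAS kept 85.0% and 69.6%.

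Heat shock chaperones and sterol genes were lost at a share near the 21.3% of all tested genes. Of 18 chaperones, 4 were lost, DNAJB1 from 3142 and 3088 to 77.4 and 59.1 (−4.44) and the co-chaperone BAG3 from 1236 and 1145 to 120.0 and 140.5 (−2.12), while HSPB1 and the mitochondrial HSPE1 kept 75.7% and 78.2%. HSPA1B counts among the 18 but was listed at 0 in every EXOSC5-KO library. Its relative response of 1.07 measures no response and raises the list median. Of 21 sterol synthesis and LDL receptor genes, 5 were lost. SQLE, squalene epoxidase, fell from 4448 and 4354 to 293 and 272 (−2.89 ± 0.11, SE, limma adjusted p = 1.18e-07) and MVK, mevalonate kinase, from 487 and 523 to 73.8 and 23.6 (−2.49). FDPS and the regulator SREBF2 kept 73.9% and 82.2%. Of 7 tested early embryo genes, 2 were lost, ZSCAN4 (7.82% kept) and TAF11L12 (10.3% kept, −2.21, adjusted p = 0.00708), while H3Y1 and RFPL4A, at 39.4% and 42.0%, did not differ detectably from the median gene. Apart from ZSCAN4 these belong to families of near-identical copies and are uncertain. The list medians were 0.16, −0.31 and −0.30, and each changed sign under 1 of the other centerings (−0.11 relative to the total for chaperones, 0.17 and 0.18 on the median of each library for the others).

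**Figure D3:**
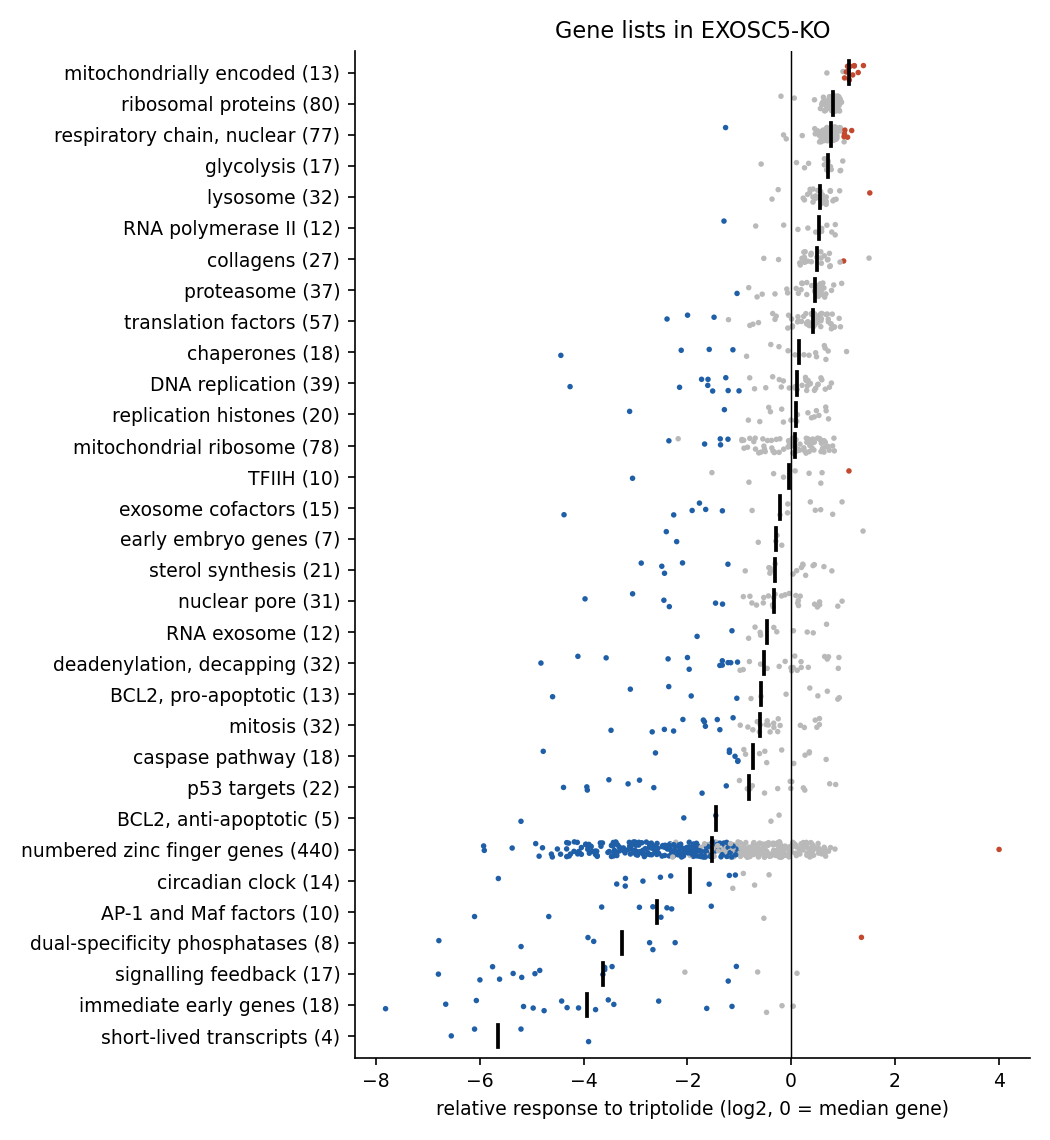
Relative response to triptolide in EXOSC5-KO (horizontal, log2, 0 = median gene) for each tested member of 32 gene lists, with the number tested in parentheses, the list median as a black bar and vertical scatter for display only. Lost genes are blue, retained genes red and others gray; lists are ordered by median from the 4 short-lived transcripts (−5.65) at the bottom to the 13 mitochondrially encoded mRNAs (1.12) at the top. HSPA1B and ZNF526 were absent or nearly absent from untreated EXOSC5-KO, so their positions measure no response.

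Of the 32 lists, the mitochondrially encoded mRNAs had the highest median, followed by cytosolic ribosomal proteins and nuclear-encoded respiratory chain genes. The 13 mitochondrially encoded mRNAs, which a different polymerase transcribes, kept a median of 104%, and 11 of them were retained, with none lower on the spike-in scale. MT-ND4 was at 11228 and 10014 without drug and at 11745 and 13062 with it (1.29 ± 0.10, SE, limma adjusted p = 3.37e-06) and MT-ND4L at 1599.7 and 1380.3 and then at 1666 and 2079 (1.39 ± 0.15, adjusted p = 2.68e-05). These 2 lie on 1 transcript. MT-ND2 kept 95.3% and, at 0.997, fell just short of the retained limit, and MT-ATP8 kept 97.5%. Of 77 nuclear-encoded respiratory chain genes, 5 were retained, 1 was lost and 74 lay above the median gene. Over all tested genes 2.58% were retained and 21.3% lost. NDUFB6, of complex I, was at 855 and 714 and then at 806 and 869 (1.17 ± 0.087, adjusted p = 2.29e-06), and ATP5ME, of ATP synthase, at 608 and 601 and then at 638 and 588 (1.09 ± 0.10, adjusted p = 6.49e-06). The lost member was NDUFV3, at 336 and 361 and then 74.3 and 63.0 (−1.26), and UQCRFS1, the Rieske protein of complex III, kept 43.1%. The list medians were 1.12 for the mitochondrially encoded and 0.76 for the nuclear-encoded genes of the chain.

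Ribosomal protein mRNAs formed a narrow group. All but 1 of the 80 cytosolic ribosomal protein genes lay above the median gene, none was lost and none reached the retained limit, with a median of 0.81 and 83.4% kept. RPS20 was at 15821 and 14631 without drug and at 14056 and 14389 with it (0.97 ± 0.047, SE, limma adjusted p = 2.11e-07). RPL36AL, the exception, kept 41.6% (−0.20 ± 0.056, adjusted p = 0.0125), and RPS9 was too uneven between replicates to place, at 1127 and 2832 and then 1693 and 466 (0.060 ± 0.72, adjusted p = 0.949). Mitochondrial ribosomal proteins were less uniform, with 5 of 78 lost, against 21.3% of all tested genes, and a median of 0.071 (−0.21 relative to the total). MRPL44 fell from 599 and 550.0 to 52.5 and 52.7 (−2.36) and MRPS30 from 1176 and 1109 to 182 and 160.2 (−1.67), while MRPL24 and MRPL23 kept 84.9% and 84.4%. Of 57 translation factors, 3 were lost (median 0.42), including EIF1B (523 and 526, then 42.2 and 51.9, −2.39) and EIF1AD (419 and 425, then 48.7 and 50.6, −1.996), and EEF1D and EIF5AL1 kept 90.5% and 92.2%.

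Other housekeeping groups, and the collagens, also lay on the kept side. Over all tested genes 21.3% were lost and 2.58% retained. None of the 17 glycolytic enzymes was lost (median 0.70), with PFKM and PFKL, of phosphofructokinase, keeping 94.8% and 92.1% and HK2, the inducible hexokinase, keeping 31.8% (−0.58 ± 0.11, SE, limma adjusted p = 0.00115). LDHA, lactate dehydrogenase, kept 51.2% (0.10, adjusted p = 0.128). Of 37 proteasome subunits 1 was lost, PSMD5 at 595 and 844 and then 158 and 169 (−1.04 ± 0.34, adjusted p = 0.0251), with PSMC6 at 27.0% kept (−0.82) and PSMB3 and PSMA7 at 92.8% and 84.1% (list median 0.46). None of 32 lysosomal genes was lost and 1 was retained (median 0.56), with ARSB and MANBA at 91.2% and 87.7% kept and HEXA and NPC1 at 55.9% and 40.1%. The retained one was CTSB, named after its values were seen, at 35.3 and 29.0 and then 62.2 and 31.0 (1.51 ± 0.54, adjusted p = 0.0354), whose groups overlapped on the spike-in scale. None of 27 collagens was lost and 1 was retained (median 0.50), a retained share near that of all tested genes. The retained one was COL5A3 (97.1 and 121, then 119 and 90.9, 1.01 ± 0.30, adjusted p = 0.014), which lost its call in 4 of the alternatives. COL12A1 kept 53.2%, COL17A1 76.7% and COL4A5 31.5%, without a detectable difference from the median gene.

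The composition of the mRNA pool shifted as well. Fewer genes filled the bulk of it: 953 and 941 genes made up the top 50% of the signal in untreated EXOSC5-KO libraries and 583 and 582 after triptolide, and the top 10 genes held 4.89% and 5.02% and then 6.25% and 6.22%. Ribosomal protein genes went from 6.53% and 6.72% of all signal to 9.45% and 9.44%, and mitochondrially encoded mRNAs from 0.719% and 0.698% to 1.24% and 1.39%. The 507 numbered zinc finger genes, tested or not, went from 0.676% and 0.675% to 0.287% and 0.279%. In each of these groups the treated values lay apart from the untreated ones. The 5 genes with the highest signal after triptolide were ACTB, which encodes β-actin, at 122998 and 116909.6 and then 85426 and 84956, EEF1A1, PKM, GAPDH and FLNA, and they kept 71.0%, 68.6%, 77.9%, 78.0% and 73.0%. All 5 lay above the median gene, at 0.52 (EEF1A1) to 0.71 (GAPDH), with limma adjusted p between 4.51e-07 and 3.49e-05.

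Among retained genes with a value of at least 100, ANKRD30BL stood apart. It was at 551 and 399.5 without drug and at 2777 and 2475 with it, a relative response of 3.55 ± 0.30 (SE, limma adjusted p = 4.47e-06). CXCL8, the chemokine interleukin-8, was at 255 and 214 and then at 347 and 375 (1.69 ± 0.25, adjusted p = 0.000226). In both genes each treated value exceeded each untreated one. AKT1, the kinase of growth factor signaling, was at 627 and 818 and then 1038 and 1034 (1.60 ± 0.29, adjusted p = 0.000801), and DOCK6, a guanine nucleotide exchange factor, at 371 and 405 and then 501 and 632 (1.60 ± 0.17, adjusted p = 2.47e-05). STAT5B was at 153 and 86.3 and then 219 and 128, ABR at 219.7 and 72.1 and then 204 and 234, GALNT6 at 133 and 95.3 and then 139 and 173, and ENSG00000285304 at 216 and 88.1 and then 198 and 245, with relative responses of 1.61, 1.85, 1.52 and 1.74. In STAT5B, ABR and ENSG00000285304 the higher untreated value lay above the lower treated one on the spike-in scale, and in GALNT6 it did not. Of the 356 retained genes, a class chosen for high treated values, 79 had both treated values above both untreated ones on that scale. On the shifted scale the treated and untreated libraries did not overlap in 77.9% of all tested genes, in either direction. A lack of overlap between so few libraries therefore says little by itself.

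On the spike-in scale itself 11 genes (0.0796% of those tested) rose, and all 11 were also retained. ADGRF1, an adhesion G protein-coupled receptor, was at 10.6 and 22.6 without drug and at 196 and 146 after triptolide, a log2 change of 3.36 ± 0.67 (SE, limma adjusted p = 0.000338). ANKRD30BL changed by 2.48 ± 0.34 (adjusted p = 1.01e-05) and CXCL8 by 0.63 ± 0.27 (adjusted p = 0.0482). ANKRD30BL and CXCL8 had untreated values of at least 100, and the others began lower. TMC5 was at 11.2 and 2.89 and then 21.5 and 52.9, TRPC1, a cation channel subunit, at 10.6 and 7.90 and then 45.0 and 36.5, and KLC3, a kinesin light chain, at 8.99 and 11.4 and then 21.9 and 31.8. TLCD2 was at 78.2 and 17.3 and then 107 and 111, IFI27L1 at 17.7 and 39.6 and then 57.7 and 63.9, PLXNB3, a semaphorin receptor, at 90.3 and 37.4 and then 154 and 107, and SLC25A15, the mitochondrial ornithine carrier, at 46.4 and 66.5 and then 142 and 97.4. In all of these the lowest treated value exceeded the highest untreated one. The untreated replicates of TMC5, TLCD2, IFI27L1, PLXNB3 and ADGRF1 differed by more than a factor of 2. ZNF526 was at 0 and 1.22 and then at 8.20 and 13.2, so it was nearly absent from untreated EXOSC5-KO libraries, whereas untreated NONT held 286 and 329.5 and untreated NUP93-KO 263 and 123. It passed the filter only through those genotypes and had treated values near the filter's limit, so its call among the 11 is no measure of a rise and no fold is given. In NONT, ANKRD30BL was at 70.8 and 95.01 and then 482 and 173, ADGRF1 at 4.98 and 10.7 and then 28.5 and 4.95 and CXCL8 at 61.2 and 60.4 and then 49.0 and 65.5. In NUP93-KO these genes were at 109 and 112 and then 865 and 752, 8.41 and 9.09 and then 45.6 and 35.0, and 152 and 142 and then 290.1 and 337. Both genotypes thus held less ANKRD30BL than EXOSC5-KO in each treatment, and in NUP93-KO the treated values of all 3 genes lay above the untreated ones. Across the 14 or 15 alternatives that each could be tried in, ANKRD30BL and ADGRF1 were called in each, TLCD2 in 13 of 15, TMC5 in 12 of 14, SLC25A15 in 11 of 15 and PLXNB3 in 10 of 15, and CXCL8 was called in 8 of 15, KLC3 in 6 of 14, and TRPC1 and IFI27L1 in 7 of 14. Without the first or the second untreated EXOSC5-KO library, 32 or 25 genes were called higher in place of 11.

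Lost genes had fewer exons than others. The median canonical transcript of all tested genes had 9 exons, that of lost genes 7 and that of retained genes 10.5, and 456 of the 912 genes with 1 or 2 exons were lost, against 19.5% of the 12083 genes with more. The median relative response was −1.23 for 1 exon, −1.25 for 2, −0.38 for 3, −0.11 for 4 and 0.070 for over 10 exons. Most of the difference therefore lay below 4 exons. Leaving out the numbered zinc finger genes gave −1.23 and −1.19 for 1 and 2 exons. In the other genotypes the same genes with 1 or 2 exons stood at −1.34 (NONT) and −1.46 (NUP93-KO), and the median difference in relative response between EXOSC5-KO and NONT was 0.071 for genes of 1 exon, 0.19 for 2, 0.088 for 3 and −0.012 for over 10 exons. These values are medians over genes and were not tested.

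Lost genes also had longer 3′ UTRs, with a median of 1659 bases against 1379 over all tested genes and 1022 in retained genes. TGTANATA was present in 41.2% of the 3′ UTRs of lost genes, 30.6% of all and 24.4% of those of retained genes, and TATTTAT in 42.7%, 36.9% and 29.1%. Per kilobase of 3′ UTR, lost genes held 0.303 TGTANATA against 0.238 in all tested genes, and 0.341 TATTTAT against 0.328, so that the classes differed less in TATTTAT per base than in TGTANATA per base. The median relative response fell from 0.12 without TGTANATA to −0.28 with 1 copy, −0.46 with 2 and −0.53 with 3 or more. Within 4 groups of genes of near-equal size by 3′ UTR length, from the shortest to the longest, genes with TGTANATA stood at −0.40, −0.46, −0.36 and −0.31 and genes without it at 0.37, 0.035, −0.057 and −0.10. Genes with the motif were thus lower in each length group, by the most in the shortest. For TATTTAT the medians with the motif were 0.20, −0.14, −0.25 and −0.25, and without it 0.36, −0.032, −0.078 and −0.16. The genes in these bins also differ in level, base composition and function, and the shares are given with no test.

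**Figure D4:**
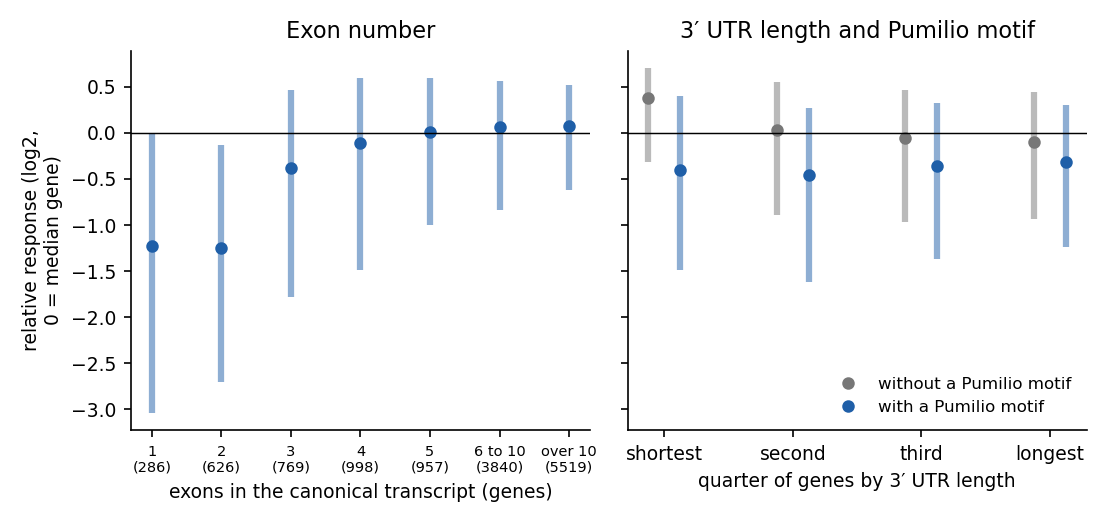
Relative response to triptolide in EXOSC5-KO (vertical, log2, 0 = median gene) by number of exons (left) and by 4 groups of 3′ UTR length for genes with and without a Pumilio motif (right). Points are medians over genes and bars the interquartile range; genes of 1 or 2 exons have medians of −1.23 and −1.25, and in each length group genes with the motif lie below genes without it.

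The lost class was largely shared with the other genotypes. Each genotype was centered on its own median response, which on the spike-in scale was −1.08 in EXOSC5-KO, −1.62 in NONT and −0.92 in NUP93-KO. The classes therefore do not compare the size of the overall loss, and the difference between these medians was not tested. Called in the same way against their own untreated libraries, though in a model with a common variance, 3128 genes were lost in NONT and 3091 in NUP93-KO. Of the 2942 genes lost in EXOSC5-KO, 86.1% were also lost in NONT and 84.9% in NUP93-KO, which is 81.0% and 80.8% of the classes of those genotypes, and 2334 genes were lost in all 3. The retained classes overlapped less. NONT had 421 retained genes and NUP93-KO 481, and 93 genes were shared with EXOSC5-KO in either case, which is 26.1% of its retained genes and 22.1% and 19.3% of theirs. The genes retained in EXOSC5-KO nevertheless had median relative responses of 0.82 in NONT and 0.81 in NUP93-KO, so most lay on the same side but under the limit there. The difference between the overlaps was not tested.

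The relative response itself was compared between genotypes with an interaction contrast. Against NONT, 13 of 13811 genes (0.0941%) differed at an adjusted p under 0.05 in limma, and 1307 had an unadjusted p under 0.05. Of the 13, 12 had a higher relative response in EXOSC5-KO. Against NUP93-KO, 10 genes (0.0724%) differed, 5 in each direction, and 1327 had an unadjusted p under 0.05. ZNF526 counts among the higher genes in both contrasts, but it was nearly absent from untreated EXOSC5-KO, so its calls measure no response. The contrasts share the EXOSC5-KO libraries and are not independent, and their counts rested on single libraries. Without the first NONT triptolide library 46 genes differed from NONT, and without the first or the second untreated NONT library 1 and 2. Without either untreated EXOSC5-KO library the count was 4 or 3 against NONT and 0 against NUP93-KO, where it was also 0 without the first untreated NUP93-KO library. In those 3 cases 1177, 995 and 981 genes had an unadjusted p under 0.05 in limma. Of 17 alternatives, HSPA8 and C11orf68 kept their call against NONT in 16 each, IER2 in 13, PNRC1 in 10, WDR74 and FRMD6 in 9, YTHDF2 in 8, FOSL2 in 7, and RTL10, BCAR1 and EGLN2 in 6. Against NUP93-KO, C11orf68 kept its call in 14, MYC and HMOX1 in 11, BCAR1 and ZSCAN31 in 9, CCN1 in 6, AHCTF1 in 5, GADD45A in 4 and YTHDF2 in 3.

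The genes less lost than in NONT included unstable mRNAs of early response genes. PNRC1, a nuclear receptor coactivator, was at 572 and 582 and then 39.7 and 49.2 in EXOSC5-KO, at 340.3 and 462 and then 1.48 and 1.21 in NONT and at 375 and 445 and then 6.62 and 4.09 in NUP93-KO. Its relative response was higher in EXOSC5-KO than in NONT by 3.17 ± 0.39 (SE, limma adjusted p = 0.0206). RTL10 was at 431 and 435 and then 55.4 and 33.5 in EXOSC5-KO and at 539.5 and 589 and then 5.44 and 4.03 in NONT (2.78 ± 0.41, adjusted p = 0.0463). Treated EXOSC5-KO libraries thus held several times more of both mRNAs than treated NONT libraries, from untreated values that differed by less than a factor of 2. IER2, an immediate early gene, was at 1813 and 1656 and then 55.7 and 64.0 in EXOSC5-KO and at 1093 and 1504 and then 8.11 and 5.07 in NONT (2.04 ± 0.22, adjusted p = 0.00925). FOSL2, an AP-1 subunit, was at 3447 and 2552 and then 289 and 249.5 against 2391 and 2918 and then 57.4 and 41.0 (1.72 ± 0.24, adjusted p = 0.0398). ZNF526 was called too (adjusted p = 0.00925), but its treated values were close, at 8.20 and 13.2 in EXOSC5-KO and 3.56 and 6.20 in NONT, and its untreated ones far apart, so no size is given. That the pairs of libraries of EXOSC5-KO and NONT did not overlap was a condition for naming these genes.

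The other genes that differed from NONT are outside the rule for named genes and were chosen after their values were seen. HSPA8, the constitutive HSC70 chaperone, was at 41739.9 and 41674 and then 10888 and 11061 in EXOSC5-KO and at 36664 and 53468 and then 4982 and 4273 in NONT, a difference of 0.78 ± 0.066 (SE, limma adjusted p = 0.00378). WDR74, a ribosome assembly factor, differed by 1.23 ± 0.16 (adjusted p = 0.0272), EGLN2, an oxygen-sensing prolyl hydroxylase, by 1.04 ± 0.15 (adjusted p = 0.0398), and FRMD6 by 0.62 ± 0.076 (adjusted p = 0.0206). BCAR1, an adhesion scaffold, C11orf68 and YTHDF2, a reader of methylated adenosine that promotes mRNA decay, differed by 0.93 ± 0.13, 1.57 ± 0.15 and 1.00 ± 0.14, with adjusted p of 0.0417, 0.00412 and 0.0398. The latter 3 also differed from NUP93-KO. The gene on the other side, ENSG00000275246, was at 95.6 and 95.2 in untreated EXOSC5-KO and listed at 0 in the other 10 libraries, so that it gives no response in NONT.

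Against NUP93-KO the differences went both ways. C11orf68 was at 1763 and 1533 and then 462 and 417 in EXOSC5-KO and at 1174 and 1171 and then 118 and 126 in NUP93-KO, a difference of 1.51 ± 0.15 (SE, limma adjusted p = 0.0121). ZSCAN31 was at 874 and 857 and then 402 and 398 against 455 and 470.1 and then 78.3 and 90.3 (1.49 ± 0.18, adjusted p = 0.0305), BCAR1 differed by 1.04 ± 0.13 (adjusted p = 0.0316) and YTHDF2 by 0.99 ± 0.14 (adjusted p = 0.0479). ZNF526, nearly absent from untreated EXOSC5-KO, was called as well (adjusted p = 0.0279). On the relative scale all 5 lay higher in EXOSC5-KO. MYC was lost more deeply in EXOSC5-KO, at 5.18 and 5.29 after triptolide against 27.2 and 33.6 in NUP93-KO, from 1236 and 1208 and 1083 and 1164 (−2.29 ± 0.27, adjusted p = 0.0279). HMOX1, heme oxygenase, was at 16.6 and 26.8 against 80.8 and 86.1 after triptolide, from 1737 and 1601 and 1228 and 1388 (−2.13 ± 0.28, adjusted p = 0.0316). CCN1, a secreted early response protein, differed by −2.11 ± 0.30 (adjusted p = 0.0479), GADD45A, a stress-induced growth arrest gene, by −1.20 ± 0.17 (adjusted p = 0.0479), and AHCTF1, the nuclear pore protein ELYS, by −1.06 ± 0.15 (adjusted p = 0.0435). For these 5 genes EXOSC5-KO lay nearer to NONT, where their relative responses were −6.89 (MYC), −4.62 (HMOX1), −6.01 (CCN1), −3.34 (GADD45A) and −2.82 (AHCTF1), against −6.55, −5.17, −6.07, −2.95 and −3.06 in EXOSC5-KO. The adjusted p of the difference from NONT was 0.523 to 0.97 for these 5 genes.

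**Figure D5:**
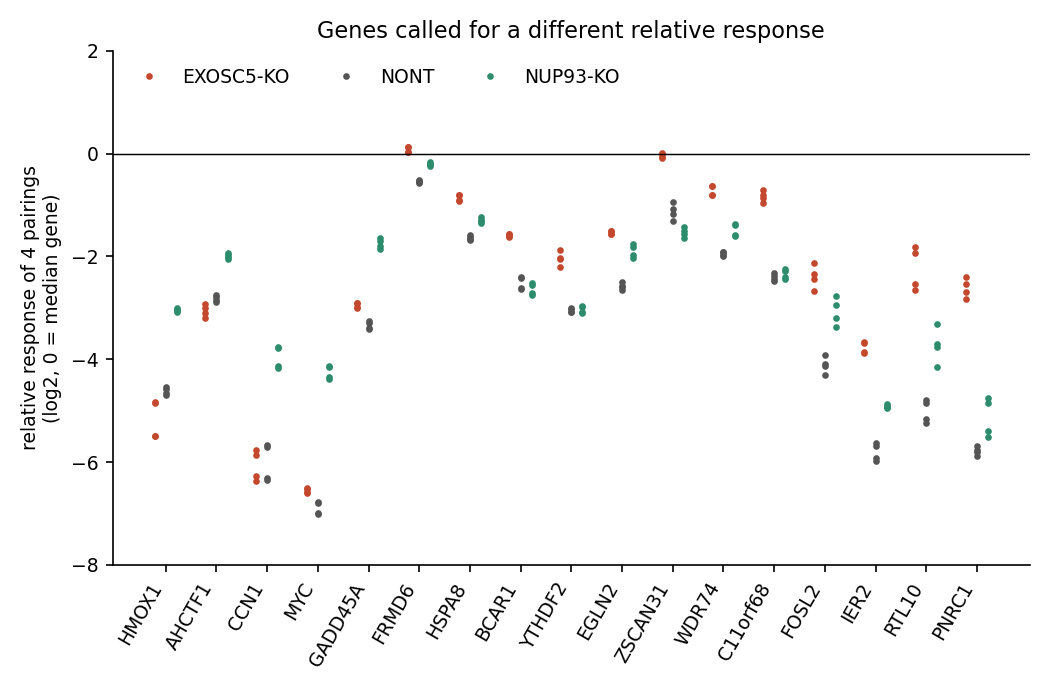
Relative response to triptolide (vertical, log2, 0 = median gene of the genotype) in the 4 possible pairs of 1 treated and 1 untreated library for 17 of the 19 genes called for a different relative response in EXOSC5-KO and another genotype; ZNF526 and ENSG00000275246 are left out. Red points are EXOSC5-KO, gray NONT and green NUP93-KO; MYC, CCN1 and HMOX1 lie lower in EXOSC5-KO and NONT than in NUP93-KO, and PNRC1, RTL10 and IER2 lie highest in EXOSC5-KO.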

How the data were processed

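mRNA of 12 libraries was sequenced. The authors pseudoaligned reads to Ensembl GRCh38 cDNA with kallisto 0.46.1, summed them per protein-coding gene and divided them by DESeq2 size factors from 92 ERCC spike-ins, and they deposited this spike-in-normalized signal. Whole reads could not be recovered from it, so no count model was used. Approximate depth was 8.60 to 11.96 M reads per library.

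Genes that averaged at least 10 across all 6 untreated libraries were analyzed on log2(value + 1) with limma 3.58.1 (R 4.3.3) with a mean-variance trend over all 12 libraries, with Benjamini-Hochberg adjustment over 13811 genes. The fit was also run on simulated libraries with large planted changes in abundant genes, which does not test the calls reported here. Of the 13811 genes, 816 were not matched to the annotation and 474 had a row identical to another. Summaries used pandas 2.3.3 (Python 3.11.15). Exons and 3′ UTRs came from GENCODE 44.

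Named genes, 1 per set of identical rows, were the 8 most lost and 8 most retained with means of at least 100 and no overlap of libraries, the rising genes, the 2 highest and 2 lowest per list, up to 5 per direction for each difference, EXOSC5 and the 5 most abundant. Those named for a difference had a group mean of at least 100 and no overlap between the pairs of libraries of the genotypes. Members and lists were chosen with earlier results of these data known. Alternatives were pseudocounts of 0.5 and 10, other filters, scales and centers, a replicate block, no trend, distinct rows, EXOSC5-KO libraries alone and leaving out each library.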

Additional observations from a re-analysis of the deposited data

Results flagged for a closer look

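The genes below had another relative response in EXOSC5-KO than in a second genotype by a limma test of the difference itself, in log2 units with adjusted p under 0.05. Against NONT, EXOSC5-KO minus NONT was 8.13 ± 0.88 (SE) for ZNF526, 3.17 ± 0.39 for PNRC1, 2.78 ± 0.41 for RTL10, 2.04 ± 0.22 for IER2 and 1.72 ± 0.24 for FOSL2. Against NUP93-KO, EXOSC5-KO minus NUP93-KO was 7.54 ± 0.88 for ZNF526, 1.51 ± 0.15 for C11orf68, 1.49 ± 0.18 for ZSCAN31, 1.04 ± 0.13 for BCAR1 and 0.99 ± 0.14 for YTHDF2, and it was −2.29 ± 0.27 for MYC, −2.13 ± 0.28 for HMOX1, −2.11 ± 0.30 for CCN1, −1.20 ± 0.17 for GADD45A and −1.06 ± 0.15 for AHCTF1. ZNF526 was at 0 and 1.22 in untreated EXOSC5-KO and passed the filter only through the other genotypes, so both of its sizes are set by the pseudocount and measure no response. In each gene the 4 pairs of treated and untreated libraries of one genotype lay apart from those of the other, which was a condition for naming it. C11orf68 kept its call against NUP93-KO in 14 of 17 alternatives and IER2 its call against NONT in 13, while RTL10 kept its call against NONT in 6, and GADD45A and YTHDF2 theirs against NUP93-KO in 4 and 3.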

How the results depend on the processing

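The scale decides the spike-in counts. Rescaling to an equal total per library, 5078 genes were lower and 2027 higher and the median response was −0.29, and by median of ratios, which sets the median near 0, these were 3964, 3612 and −0.0089. With the same mitochondrially encoded sum, 6 genes were higher and the median was −1.17. When the filter was raised to 50, 7 genes were higher, and with no filter 73, with a median of −0.85. The median was −0.95 with a pseudocount of 10. Leaving out 1 library at a time gave 6953 to 7781 lower and 10 to 32 higher genes, medians of −1.13 to −1.03, 2603 to 2761 lost and 337 to 430 retained genes, and 1 to 46 genes with a difference from NONT and 0 to 24 from NUP93-KO. Centered on the median of each library, 3151 genes were retained and 6 differed from NONT, and relative to the total 85 were retained. The lost count stayed within 1.5 times the 2942 in each alternative, at 2040 to 3608. Without the mean-variance trend 6 genes differed from NONT and 3 from NUP93-KO.

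Replicates share numbers in the labels, and deviations of same-numbered EXOSC5-KO libraries correlated at 0.0017 over genes. A correlation over genes in this genotype alone cannot exclude that the numbers pair the libraries. With the replicate number as a block, 8670 genes were lower, 9 higher, 2928 lost and 347 retained, and 4 differed from NONT (HSPA8, C11orf68, IER2 and ZNF526) and 11 from NUP93-KO. The call of ZNF526 measures no response, as it was nearly absent from untreated EXOSC5-KO.

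For named genes, 2412 of 2678 values over 188 results kept their direction and their side of the threshold, 231 lost the call and 29 gained it. In 6 the direction turned: centered on the median of each library, POLR2B was at 0.33, RPL36AL at 0.28, UQCRFS1 at 0.33, RFPL4A at 0.29 and ZSCAN31 at 0.43, and relative to the total LDHA was at −0.17. Where no cause is named, the cause was not tested. With 2 libraries a group, and values under 100 for 3325 genes, small changes of low genes were not detectable.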

Other observations

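Genes of chromosome X were kept slightly more than those of autosomes, a description chosen after the values were seen and not tested. The 502 tested genes of chromosome X had a median relative response of 0.26 in EXOSC5-KO, 0.29 in NONT and 0.33 in NUP93-KO, and 14.5% of them were lost, against 21.3% of all tested genes. The medians of the autosomes in EXOSC5-KO ran from −0.17 (chromosome 10) to 0.12 (chromosome 22).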
